A study of Mus musculus with 6 samples.

Results

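The genes described here are the lysosomal cathepsins and the subunits of the vacuolar proton pump in mouse heart. They were chosen by name: genes with a probe set annotated to 1 symbol of the cathepsin (Cts), pump (Atp6v0 and Atp6v1) or pump accessory (Atp6ap1, Atp6ap2) families, together with Lamp1 and Lamp2. Ctsk and Atp6v0d2, which are also markers of bone-resorbing cells, were left out by the rule and are given separately. The rule found 40 genes of 18193 named genes on the array, measured by 81 probe sets: 17 cathepsins, 12 subunits of the V1 sector, 7 subunits of the V0 sector and 4 accessory or membrane proteins. Where a gene had several probe sets, the one brightest on average over the 6 arrays stands for it. Of the 40, 31 passed the filter on low signal and were tested.

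The 6 arrays, of Affymetrix make, measured total RNA of heart tissue in 3 groups of 2. The first group was apoE-deficient mice given rosiglitazone, an antidiabetic agonist of the nuclear receptor PPARgamma, at 30 mg/kg/d over 2 months, starting at 6 months of age; the labels call these hearts failing. They are called treated hearts below, and each value of a pair is 1 array. The second group was untreated apoE-deficient mice, and the third was untreated B6 mice without the deficiency. All mice were on the B6 background, were 8 months old and ate a chow with 7% fat and 0.15% cholesterol. The drug and the failing state go together in the first group, so they cannot be told apart. Whether the 2 arrays of a group hold RNA of separate mice is not in the labels, so the p-values cover array-to-array spread alone, and that spread may be technical.

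Lysosomes break down proteins, lipids and sugars delivered by endocytosis and autophagy. The vacuolar proton pump acidifies them: its V1 sector, on the cytosolic side, hydrolyses ATP and turns a rotor, and its V0 sector carries protons through the membrane. Cathepsins are the proteases of this acidic space; most are papain-type cysteine proteases, while cathepsins D and E are aspartic and cathepsins A and G are serine enzymes. In heart muscle lysosomes turn over damaged mitochondria and other worn cell parts, and macrophages within the tissue are also rich in them. Many lysosomal genes carry a promoter element with the core CACGTG that is bound by TFEB and its relatives.

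Promoters in RefSeq (GRCm38.p6, from 250 bases before to 50 after the annotated start) were at hand for 31 of the 40 genes. The core CACGTG, searched on both strands, which read the same for these palindromes, was present in 9 of the 31 (29.0%), and in at least 1 promoter of 8.09% of 27025 RefSeq genes, with windows of the same length. The longer form TCACGTGA, which contains the core, was present in 5 of the 31 (16.1%), and in 1.12% of all genes. The 10-base form that adds a G before and a C after it was present in 0 of the 31 and in 0.370% of all genes. The 9 genes with the core were Ctsa, Ctsd, Ctsf, Ctsl, Atp6v0b, Atp6v0d1, Atp6v0e, Atp6v1a and Lamp1. The 250 bases before the start are shown for 4 genes that differ both in matches and in how their signal varied below: Ctsz has no match and had the largest difference of the cathepsins, Atp6v1a has 1 match, Ctsd has 2 and Lamp1 has 4. Capitals mark the core, and a match is a description of these letters only.
Ctsz (chr2:174439040-174439289, minus strand): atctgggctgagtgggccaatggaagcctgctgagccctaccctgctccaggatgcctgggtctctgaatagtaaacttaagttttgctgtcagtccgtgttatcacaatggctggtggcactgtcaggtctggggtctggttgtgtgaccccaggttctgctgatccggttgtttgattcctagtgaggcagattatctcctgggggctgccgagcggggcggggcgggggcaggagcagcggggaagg
Atp6v1a (chr16:44139260-44139509, minus strand): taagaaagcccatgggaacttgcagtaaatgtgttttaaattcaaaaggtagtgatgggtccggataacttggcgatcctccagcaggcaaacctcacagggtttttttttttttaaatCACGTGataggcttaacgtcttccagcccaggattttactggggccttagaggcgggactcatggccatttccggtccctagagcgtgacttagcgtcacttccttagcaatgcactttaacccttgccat
Ctsd (chr7:142387828-142388077, minus strand): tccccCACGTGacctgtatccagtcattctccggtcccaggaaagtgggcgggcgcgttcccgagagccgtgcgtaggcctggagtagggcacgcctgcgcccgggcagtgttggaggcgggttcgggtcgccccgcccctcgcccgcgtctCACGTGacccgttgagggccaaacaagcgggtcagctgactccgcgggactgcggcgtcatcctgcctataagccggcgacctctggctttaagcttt
Lamp1 (chr8:13158911-13159160, plus strand): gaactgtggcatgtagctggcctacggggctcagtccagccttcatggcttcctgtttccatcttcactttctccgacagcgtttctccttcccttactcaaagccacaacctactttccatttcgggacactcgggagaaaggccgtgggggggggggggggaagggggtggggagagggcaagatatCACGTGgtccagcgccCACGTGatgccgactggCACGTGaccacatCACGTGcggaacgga
In Lamp1 the 4 matches began 61, 45, 28 and 15 bases before the start, in Ctsd 245 and 98 bases before it, and in Atp6v1a 131 bases before it.

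Total brightness differed between the deposited arrays, and it went with the groups. The 2%-trimmed mean signal was 263 to 341 in treated hearts, 126 to 130 in untreated apoE-deficient hearts and 149 to 175 in B6 hearts. Levels below are therefore log2 values of quantile-normalized signal plus a pseudocount of 11.1, and a difference of log2 levels understates the change of dim genes. A difference passed at a limma adjusted p under 0.05 over all 27022 tested probe sets. With other scalings the median of all tested probe sets moved: for treated minus untreated apoE-deficient it was -0.016 with quantile normalization and 0.18 with spike-in scaling. For untreated apoE-deficient minus B6 these medians were -0.0064 and 0.11, and for treated apoE-deficient minus B6 they were -0.023 and 0.28. Differences are given relative to quantile normalization, and the sign of a difference turned with another scaling for 10, 10 and 9 of the 31 genes in these 3 comparisons. In treated against untreated apoE-deficient hearts these were Ctsb, Ctsd and Lamp1, which passed under some scaling, and Ctsa, Atp6v0a1, Atp6v0a2, Atp6v0b, Atp6v0d1, Atp6v1c1 and Atp6v1f, which passed under none. Apoe itself averaged 6.23 in treated hearts, 5.77 in untreated apoE-deficient hearts and 11.88 in B6 hearts, low in both deficient groups. The 10 cardiomyocyte markers examined were all well detected, with a summed normalized signal of 144391 to 157204 per array. That level sum belongs to quantile normalization, with which 3 of the 10 rose and 4 fell in treated against untreated apoE-deficient hearts (median -0.079). With trimmed-mean scaling and with array medians centred 10 of the 10 fell (medians -0.86 and -0.78), and with spike-in scaling 8 did (-0.68). Of all tested genes 11.4% rose and 12.3% fell with quantile normalization. The share that fell was 12.9% with trimmed-mean scaling, 9.35% with array medians centred and 6.44% with spike-in scaling.

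Markers of other cell types moved with the groups and stand beside every result below. Summed signals of 13 airway and alveolar epithelium markers were 15121 and 15993 in treated hearts, against 333 and 489 in untreated apoE-deficient hearts and 269 and 389 in B6 hearts. Those of 9 white adipocyte markers were 28286 to 29031 in treated hearts, against 9023 to 9168 in untreated apoE-deficient hearts and 10085 to 10802 in B6 hearts. The 6 B and plasma cell markers summed to 1639 and 1936 in treated hearts, against 230 and 234 in untreated apoE-deficient hearts and 215 to 271 in B6 hearts. The 7 brown adipocyte markers summed to 25796 to 26428 in treated hearts, against 16747 to 17049 in untreated apoE-deficient hearts and 15747 to 16276 in B6 hearts. In treated against untreated apoE-deficient hearts 5 of them rose and 1 fell, with a median difference of 2.06 and a range of -0.58 to 8.69. The sum thus understates the rise of most of them. The 9 fibroblast markers summed to 25910 to 25939 in treated hearts, against 20788 to 21033 in untreated apoE-deficient hearts and 23161 to 23663 in B6 hearts. Of these 6 rose and 1 fell in treated against untreated apoE-deficient hearts. The 19 macrophage markers summed to 17338 and 17415 in treated hearts, 17103 and 17268 in untreated apoE-deficient hearts, and 12932 and 13418 in B6 hearts. Of the macrophage markers 4 rose and 3 fell in treated against untreated apoE-deficient hearts, while 8 rose and 1 fell in untreated apoE-deficient against B6 hearts. The shares of all tested genes were 11.4% higher and 12.3% lower in the former comparison, and 3.85% and 4.66% in the latter. Genes at or above the median level of the 31 tested genes had shares of 21.4% and 32.5%, and 10.2% and 11.9%. The part of these markers' cells in the results was not tested. In tissue RNA, fewer cells of a type and less RNA per cell cannot be told apart.

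In treated against untreated apoE-deficient hearts, 10 of the 31 tested genes rose, 2 fell and 19 did not pass. The 10 include Atp6v1g1, whose second probe set passed as lower; without that gene 9 of 30 rose and 2 fell. Of the 10 that rose, 5 were cathepsins (Ctsz, Ctso, Ctsl, Ctsh and Ctsb), 3 were V1 subunits (Atp6v1g1, Atp6v1d and Atp6v1a), 1 was the V0 subunit Atp6v0e and 1 was Lamp2. The 2 that fell were the cathepsins Ctse and Ctsf. Over all 13236 tested genes 23.7% passed, 11.4% as higher and 12.3% as lower, against 38.7%, 32.3% and 6.45% of the 31. Bright genes pass more often, and among 1856 genes at or above the median level of the 31, 54.0% passed, 21.4% as higher and 32.5% as lower. Of the 31, 16 lay in that range, of which 7, Atp6v1g1 among them, rose and 0 fell. The arrays of the 2 groups did not overlap for 20 of the 31 (64.5%, against 63.5% of all tested genes). The median difference was 0.071 over the 31 and -0.034 over all tested genes.

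The count depends on how the arrays are put on one scale. With trimmed-mean scaling 9 of the 31 rose and 7 fell, with array medians centred 9 rose and 5 fell, and with spike-in scaling 12 rose and 0 fell. Over all tested genes 13.2% rose and 12.9% fell with trimmed-mean scaling, 15.5% and 9.35% with array medians centred, and 23.2% and 6.44% with spike-in scaling. Under each of these 4 scalings 8 genes were called higher: Ctsz, Ctso, Ctsl, Ctsh, Atp6v1g1 (by 1 of its 2 probe sets), Atp6v1d, Atp6v1a and Atp6v0e. No gene was called lower under each of them. The share of all tested genes called higher under each of the 4 is not given, so these 8 have no background beside them. The share of higher calls among all probe sets that passed was 50.5% with quantile normalization, 64.7% with array medians centred and 79.6% with spike-in scaling.

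Cathepsin Z, a lysosomal carboxypeptidase, had the largest difference of the 31 genes. Ctsz levels were 10.91 and 11.05 in treated hearts, 10.02 and 10.05 in untreated apoE-deficient hearts, and 9.69 and 9.57 in B6 hearts. The 3 groups did not overlap, with treated hearts highest and B6 hearts lowest. Treated hearts exceeded untreated apoE-deficient hearts by 0.95 ± 0.07 (SE), a 1.93-fold difference with adjusted p = 3.73e-05. Untreated apoE-deficient hearts in turn exceeded B6 hearts 1.32-fold, by 0.40 ± 0.07 with adjusted p = 0.0119. Ctsz has 2 further tested probe sets, and both also passed as higher in treated against untreated apoE-deficient hearts, by 0.93 ± 0.10 and 0.74 ± 0.07. For untreated apoE-deficient against B6, 1 of these passed (0.30 ± 0.07) and the other gave 0.04 ± 0.10. The call for treated against untreated apoE-deficient hearts held in each of 16 alternative settings, with differences of 0.87 to 1.08, and the call for untreated apoE-deficient against B6 held in 11 of the 16. Without either untreated apoE-deficient array or without B6 replicate 2 the second call was lost, with differences of 0.34 to 0.42 and adjusted p = 0.0556 to 0.0823.

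**Figure D1:**
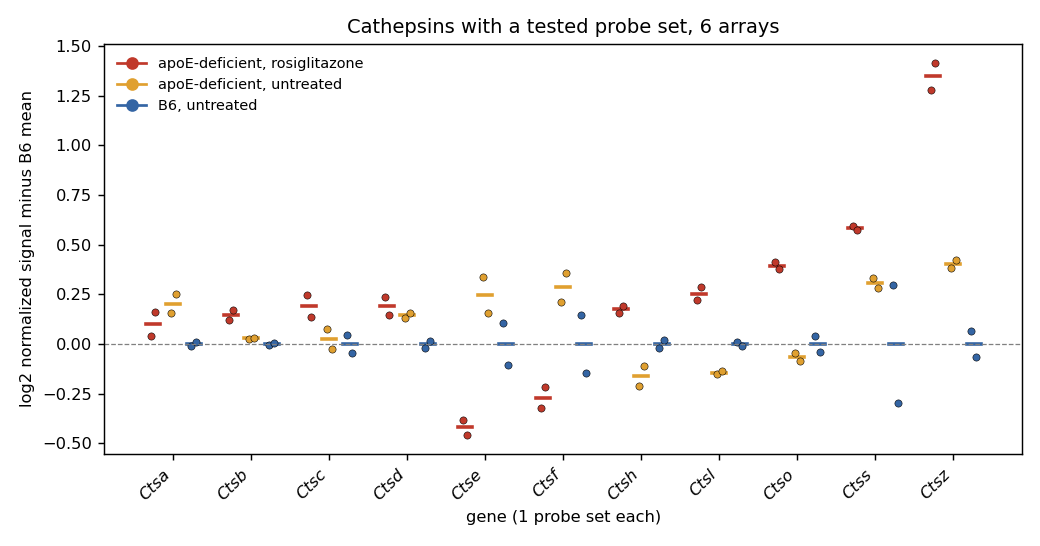
Log2 normalized signal of the 11 tested cathepsins on each of the 6 arrays, set against the mean of the B6 arrays of the same gene; points are arrays and bars are means of 2 arrays. Ctsz separates the 3 groups, Ctsl, Ctsh and Ctso are high in treated hearts, and Ctse and Ctsf are lowest there.

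Another 3 cathepsins rose in treated against untreated apoE-deficient hearts under each scaling. Cathepsin L, a broad lysosomal endopeptidase, had levels of 12.03 and 12.10 in treated hearts, 11.66 and 11.67 in untreated apoE-deficient hearts, and 11.82 and 11.80 in B6 hearts. Its untreated apoE-deficient arrays were thus the lowest, and the difference of treated from untreated apoE-deficient hearts was 0.40 ± 0.04 (1.32-fold, adjusted p = 2.42e-04). Against B6 hearts the untreated apoE-deficient hearts differed by -0.14 ± 0.04, which did not pass (adjusted p = 0.0720) and was 0.06 with spike-in scaling.

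Ctso, which encodes a papain-type cysteine protease, had levels of 9.32 and 9.29 in treated hearts, 8.87 and 8.82 in untreated apoE-deficient hearts, and 8.95 and 8.87 in B6 hearts. Treated hearts lay above both other groups, and the difference from untreated apoE-deficient hearts was 0.46 ± 0.08 (1.38-fold, adjusted p = 0.00341). The second Ctso probe set gave 0.33 ± 0.44 and did not pass. Ctsh, a lysosomal aminopeptidase, had levels of 9.96 and 10.00 in treated hearts, 9.59 and 9.69 in untreated apoE-deficient hearts, and 9.78 and 9.83 in B6 hearts. Its groups did not overlap, with untreated apoE-deficient hearts lowest, and treated hearts exceeded them by 0.34 ± 0.07 (1.26-fold, adjusted p = 0.00694). The other Ctsh probe set passed in the same comparison (0.51 ± 0.10) and also passed as lower in untreated apoE-deficient against B6 hearts (-0.69 ± 0.10).

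Cathepsin B, a lysosomal cysteine protease, passed by a small margin on its representative probe set, whose direction rests on the scaling. Its levels were 12.69 and 12.74 in treated hearts, 12.60 in both untreated apoE-deficient hearts, and 12.56 and 12.57 in B6 hearts. The difference of treated from untreated apoE-deficient hearts was 0.12 ± 0.03 (adjusted p = 0.0433), and it became -0.28 with trimmed-mean scaling, -0.20 with array medians centred and -0.098 with spike-in scaling. Without any one array other than treated replicate 1 it did not pass (adjusted p = 0.0734 to 0.148). With quantile normalization another Ctsb probe set passed as higher, at 0.25 ± 0.05 (adjusted p = 0.00451). Further ones gave 0.17 ± 0.08 and -0.02 ± 0.11 and did not pass. Ctsd and Lamp1 did not pass in this comparison and also turned sign with another scaling.

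Ctse and Ctsf were the cathepsins that fell. Ctse, which encodes an aspartic protease of endosomes best known from stomach and immune cells, had levels of 7.41 and 7.33 in treated hearts, 8.13 and 7.95 in untreated apoE-deficient hearts, and 7.90 and 7.69 in B6 hearts. Treated hearts were the lowest and did not overlap with either other group, and the difference from untreated apoE-deficient hearts was -0.67 ± 0.13 (0.630-fold, adjusted p = 0.0081). Its second probe set passed too, at -0.98 ± 0.25, and in untreated apoE-deficient against B6 hearts it passed as higher, at 1.16 ± 0.25. Ctsf, a papain-type cysteine protease, had levels of 8.78 and 8.88 in treated hearts, 9.31 and 9.46 in untreated apoE-deficient hearts, and 9.25 and 8.95 in B6 hearts. Treated hearts were again lowest, and the difference from untreated apoE-deficient hearts was -0.56 ± 0.11 (0.680-fold, adjusted p = 0.00726). With spike-in scaling Ctse (-0.38) and Ctsf (-0.32) kept their direction and did not pass. Ctse also missed the threshold without treated replicate 2 (-0.63, adjusted p = 0.0521) and Ctsf without untreated apoE-deficient replicate 2 (-0.48, adjusted p = 0.0537).

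The remaining tested cathepsins did not pass between treated and untreated apoE-deficient hearts. Cathepsin S, which processes the invariant chain of MHC class II in antigen-presenting cells, had levels of 9.92 and 9.89 in treated hearts, 9.65 and 9.60 in untreated apoE-deficient hearts, and 9.62 and 9.02 in B6 hearts. The B6 arrays lay far apart, and the difference of treated from untreated apoE-deficient hearts was 0.28 ± 0.15 (adjusted p = 0.256). For Ctsc, which encodes the dipeptidyl peptidase that activates granule serine proteases, the difference was 0.17 ± 0.07 (adjusted p = 0.127). For Ctsa, which encodes a carboxypeptidase that also protects lysosomal beta-galactosidase and neuraminidase, it was -0.10 ± 0.06 (adjusted p = 0.318), and 0.04 with spike-in scaling. For Ctsd, the main aspartic protease of lysosomes, it was 0.05 ± 0.04 (adjusted p = 0.504).

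Below the filter lay 6 cathepsins. Ctsj, Ctsm, Ctsq and Ctsr belong to the rodent placental cluster, Ctsw is known from cytotoxic lymphocytes, and Ctsg is a serine protease of neutrophil and mast cell granules. Ctsg had normalized signals of 2.15 and 2.43 in treated hearts, 54.1 and 20.3 in untreated apoE-deficient hearts, and 1.57 and 4.72 in B6 hearts. Only the untreated apoE-deficient arrays exceeded the pseudocount of 11.1, and with no filter Ctsg was the one gene added to those that passed as lower in treated against untreated apoE-deficient hearts.

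Among the pump subunits, 3 of 10 tested V1 genes passed as higher in treated against untreated apoE-deficient hearts and 0 as lower. Among the 3 is Atp6v1g1, whose probe sets disagree, which leaves Atp6v1d and Atp6v1a. Atp6v1d encodes the D subunit of the central rotor. Its levels were 11.46 and 11.33 in treated hearts, 10.92 and 10.89 in untreated apoE-deficient hearts, and 10.92 in both B6 hearts. Treated hearts lay above the other groups, which overlapped each other, and the difference from untreated apoE-deficient hearts was 0.49 ± 0.05 (1.41-fold, adjusted p = 3.5e-04). A second Atp6v1d probe set passed at 0.24 ± 0.05, and the third gave 0.15 ± 0.07 and did not pass.

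Atp6v1a encodes the catalytic A subunit, which binds and hydrolyses ATP. Its levels were 8.46 and 8.50 in treated hearts, 8.11 and 8.15 in untreated apoE-deficient hearts, and 8.15 and 8.20 in B6 hearts. Treated hearts lay above both other groups, and the difference from untreated apoE-deficient hearts was 0.35 ± 0.10 (1.27-fold, adjusted p = 0.0341). A second Atp6v1a probe set passed too, at 0.35 ± 0.10. The call held in 11 of 16 alternative settings and was lost when any treated or untreated apoE-deficient array was left out (adjusted p = 0.0731 to 0.176).

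Atp6v1g1, which encodes a G subunit of the peripheral stalk, gave opposite answers from its 2 tested probe sets. The one with the higher mean had levels of 11.28 and 11.18 in treated hearts, 10.64 in both untreated apoE-deficient hearts, and 10.88 and 10.76 in B6 hearts, a difference of 0.59 ± 0.06 between treated and untreated apoE-deficient hearts (1.5-fold, adjusted p = 1.96e-04). The other had 10.61 and 10.68 in treated hearts, 11.05 and 11.12 in untreated apoE-deficient hearts, and 10.93 and 10.98 in B6 hearts, and passed as lower by -0.44 ± 0.05 (adjusted p = 5.51e-04). The mean over all Atp6v1g1 probe sets differed by -0.20, which did not pass. That mean takes in a dim probe set below the filter, with normalized signals of 6.13 and 4.78 in treated hearts and 27.8 and 8.65 in untreated apoE-deficient hearts. The order of the groups is reversed between the 2 tested probe sets. No direction is therefore given for Atp6v1g1 as a gene.

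The other tested V1 subunits did not pass in this comparison with quantile normalization, while with trimmed-mean scaling 1 V1 subunit was called lower. For Atp6v1h, the regulatory H subunit, treated hearts had 8.92 and 8.65, untreated apoE-deficient hearts 8.42 and 8.44, and B6 hearts 8.18 and 8.41. The difference of treated from untreated apoE-deficient hearts was 0.36 ± 0.12 (adjusted p = 0.0709) and passed under each of the 3 other scalings, at 0.45 to 0.63. Differences for Atp6v1b2, Atp6v1c1, Atp6v1e1, Atp6v1e2 and Atp6v1f lay between -0.15 and 0.01, and those of Atp6v1c1 and Atp6v1f were above 0 with spike-in scaling. The dim Atp6v1g2 gave 0.50 ± 0.26 (adjusted p = 0.219). Atp6v1b1 and Atp6v1c2, forms known mainly from kidney and other epithelia, lay below the filter.

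**Figure D2:**
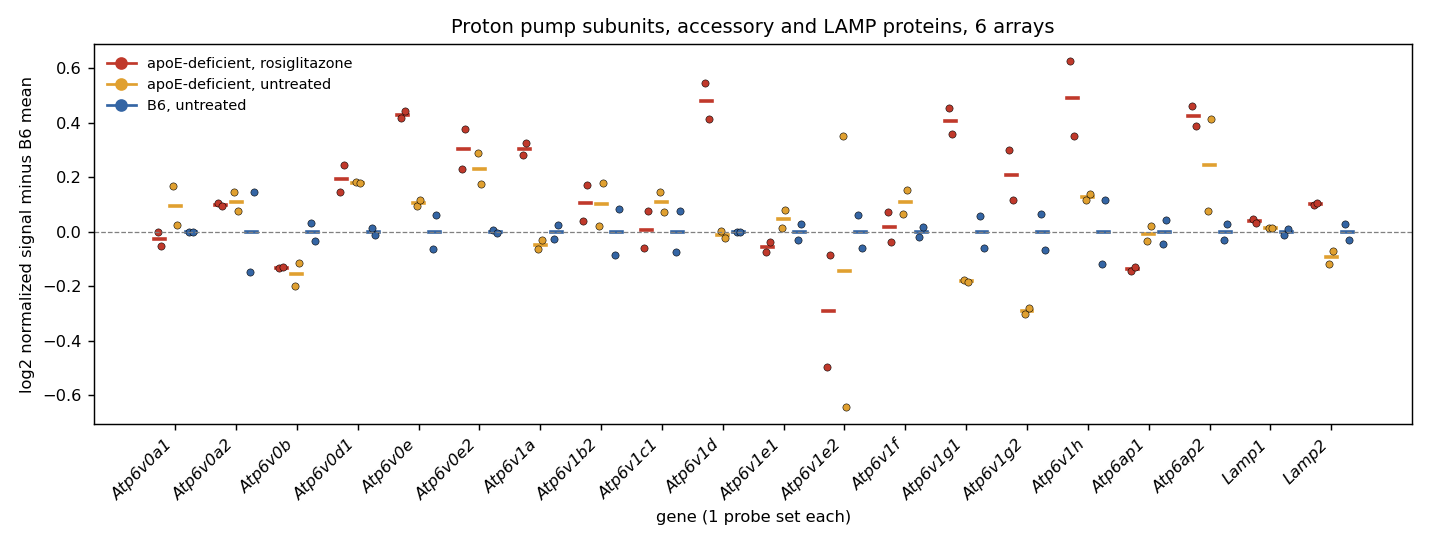
Log2 normalized signal of the 20 tested pump, accessory and LAMP genes on each of the 6 arrays, set against the mean of the B6 arrays of the same gene; points are arrays and bars are means of 2 arrays. Atp6v1d, Atp6v1a and Atp6v0e are high on both treated arrays, and the 2 untreated apoE-deficient arrays of the dim Atp6v1e2 lie far apart.

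In the V0 sector 1 of 6 tested genes rose in treated against untreated apoE-deficient hearts. Atp6v0e, which encodes the small e subunit, had levels of 10.31 and 10.34 in treated hearts, 9.99 and 10.01 in untreated apoE-deficient hearts, and 9.83 and 9.95 in B6 hearts. The groups did not overlap and followed the order treated, untreated apoE-deficient, B6. The difference of treated from untreated apoE-deficient hearts was 0.32 ± 0.06 (1.25-fold, adjusted p = 0.00699).

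The V0 proteolipid gene Atp6v0b, the d subunit gene Atp6v0d1, the a subunit genes Atp6v0a1 and Atp6v0a2 and Atp6v0e2 did not pass, with differences between -0.12 and 0.07. With spike-in scaling Atp6v0a1 (0.12) and Atp6v0a2 (0.26) turned upward, and with trimmed-mean scaling Atp6v0b (-0.05) and Atp6v0d1 (-0.04) turned downward. Another Atp6v0a2 probe set passed as higher at 0.54 ± 0.15, while the representative one gave -0.01 ± 0.11. Atp6v0a4, a form of kidney and inner ear, lay below the filter.

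Of the accessory and membrane proteins, Lamp2 passed in treated against untreated apoE-deficient hearts. LAMP-2 is a lysosomal membrane glycoprotein whose loss causes Danon disease of heart and skeletal muscle in humans. Lamp2 levels were 11.65 and 11.66 in treated hearts, 11.43 and 11.48 in untreated apoE-deficient hearts, and 11.58 and 11.52 in B6 hearts. Untreated apoE-deficient hearts were lowest, and treated hearts exceeded them by 0.20 ± 0.04 (1.15-fold, adjusted p = 0.0137). The 3 other Lamp2 probe sets gave 0.12 to 0.22 and did not pass. The Lamp2 call was lost without untreated apoE-deficient replicate 1 (0.17, adjusted p = 0.0861), with trimmed-mean scaling (0.06) and with array medians centred (0.13).

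Lamp1, the other major lysosomal membrane glycoprotein, had levels of 12.46 and 12.45 in treated hearts, 12.43 in both untreated apoE-deficient hearts, and 12.40 and 12.43 in B6 hearts. The difference of treated from untreated apoE-deficient hearts was 0.03 ± 0.03 (adjusted p = 0.667), but -0.29 with trimmed-mean scaling and -0.22 with array medians centred, both of which passed. Atp6ap2, the accessory subunit also known as the prorenin receptor, gave 0.18 ± 0.10 (adjusted p = 0.254), and Atp6ap1 gave -0.13 ± 0.05 (adjusted p = 0.124). Like Lamp1, Atp6ap1 was called lower with trimmed-mean scaling.

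**Figure D3:**
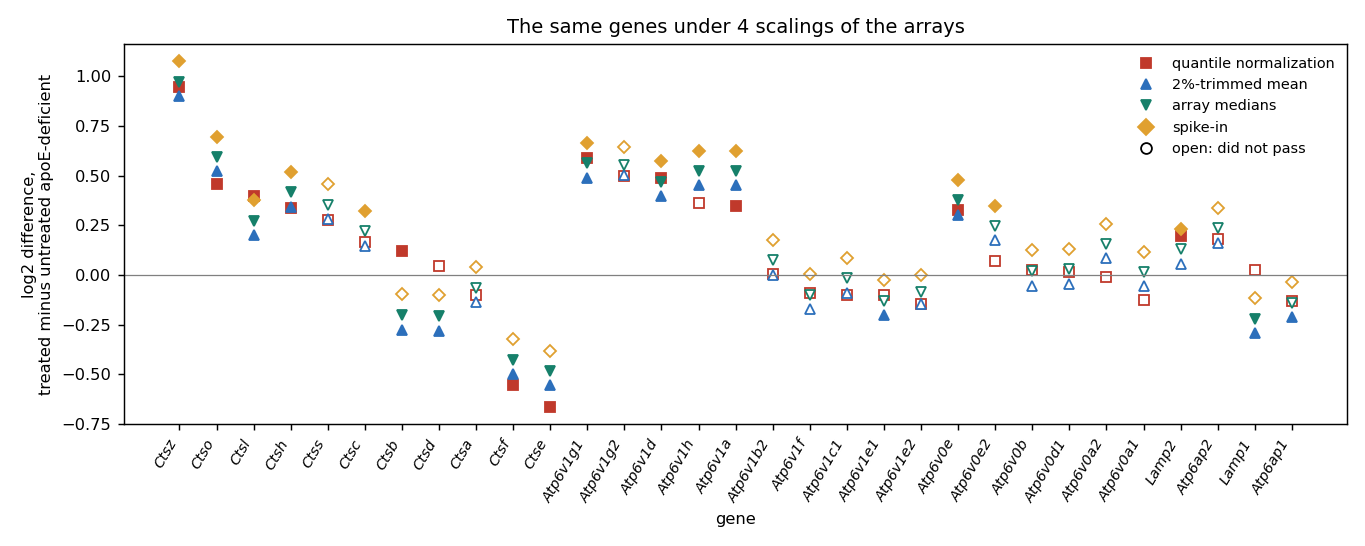
Log2 difference of treated minus untreated apoE-deficient hearts for the 31 tested genes under 4 ways of putting the arrays on one scale; filled symbols passed at an adjusted p under 0.05. Ctsz lies between 0.90 and 1.08 under each, while Ctsb, Ctsd and Lamp1 change sign.

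Between untreated apoE-deficient and B6 hearts, 1 of the 31 genes rose (Ctsz, above) and 0 fell, whereas 8.51% of all tested genes passed, 3.85% as higher and 4.66% as lower. Of the bright genes 22.1% passed, 10.2% as higher and 11.9% as lower, and of the 16 members in that range 1 rose and 0 fell. At an unadjusted p under 0.05, 10 of the 31 (32.3%) differed, against 25.2% of all tested genes. The median difference was 0.096 over the 31 and 0.00060 over all tested genes. With spike-in scaling 8 of the 31 (25.8%) rose, and with trimmed-mean scaling or array medians centred 2 (6.45%) did. Over all tested genes 11.1% rose with spike-in scaling, 4.22% with trimmed-mean scaling and 2.62% with array medians centred. The arrays of the 2 groups did not overlap for 22 of the 31 genes (71.0%, against 52.8% of all tested genes), with untreated apoE-deficient hearts higher for 14 and lower for 8. Ctsl and Ctsh were among the 8, and Ctsa (0.20 ± 0.06, adjusted p = 0.101), Ctsd (0.14 ± 0.04, adjusted p = 0.0752) and Atp6v0d1 (0.18 ± 0.06, adjusted p = 0.0898) were among the 14.

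Some probe sets other than the representative ones did pass between untreated apoE-deficient and B6 hearts. One for Atp6v1e1, a peripheral stalk subunit, had levels of 7.40 and 6.50 in treated hearts, 7.65 and 7.66 in untreated apoE-deficient hearts, and 5.31 and 5.75 in B6 hearts. Both apoE-deficient groups were above B6 hearts on it, and untreated apoE-deficient hearts exceeded B6 hearts by 2.13 ± 0.29 (adjusted p = 0.00434). The representative Atp6v1e1 probe set gave 0.05 ± 0.05 in the same comparison. An Atp6v0b probe set passed as higher at 0.46 ± 0.06, where the representative one gave -0.16 ± 0.05 and did not pass. A second Atp6v1b2 probe set passed at 0.40 ± 0.09, where the representative one gave 0.10 ± 0.09. In all, 6 such probe sets passed for genes whose representative one did not, the others being for Atp6ap2 (0.54 ± 0.09), Ctse and Ctsh. A further Atp6ap2 probe set went the other way, at -0.22 ± 0.10, and did not pass.

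In treated apoE-deficient against B6 hearts, 12 of the 31 genes rose and 0 fell (11 of 30 without Atp6v1g1), where 18.7% of all tested genes passed, 8.78% as higher and 9.87% as lower. Among the 1856 bright genes 48.0% passed, 18.2% as higher and 29.8% as lower, and of the 16 members in that range 8 rose and 0 fell. The median difference was 0.17 over the 31 and -0.027 over all tested genes. The arrays of the 2 groups did not overlap for 27 of the 31 (87.1%, against 61.4% of all tested genes), with treated hearts higher for 20 and lower for 7. This comparison shares its treated arrays with the first and its B6 arrays with the second, so the 3 sets of values are not independent.

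With trimmed-mean scaling 9 of the 31 rose and 1 fell in treated apoE-deficient against B6 hearts, with array medians centred 8 rose and 1 fell, and with spike-in scaling 24 (77.4%) rose. Over all tested genes 8.66% rose with trimmed-mean scaling, 8.05% with array medians centred and 30.8% with spike-in scaling. The gene that fell was Lamp1, at -0.18 in both. The 8 genes called higher under each of the 4 scalings were Ctsz, Ctso, Ctss, Atp6v1d, Atp6v1g1, Atp6v1h, Atp6v0e and Atp6ap2. The share of all tested genes called so is again not given. The second Atp6v1g1 probe set again went the other way, at -0.31 ± 0.05, and an Atp6ap2 probe set gave 0.004 ± 0.095. Probe sets for Atp6v1e1 (1.42 ± 0.29), Atp6v1b2 (0.44 ± 0.09) and Atp6v0b (0.27 ± 0.06) passed as higher where the representative ones did not. Those representative probe sets gave -0.06, 0.11 and -0.13.

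Cathepsins made up 6 of these 12. Ctsz exceeded B6 hearts 2.55-fold in treated hearts, by 1.35 ± 0.07 (adjusted p = 5.28e-06), and Ctss exceeded them 1.5-fold, by 0.58 ± 0.15 (adjusted p = 0.0336). Ctso was higher by 0.39 ± 0.08 (adjusted p = 0.0091) and Ctsl by 0.25 ± 0.04 (adjusted p = 0.00346). The Ctss value rests on the B6 array at 9.02: without B6 replicate 2 it was 0.29 and did not pass (adjusted p = 0.0724), nor did it pass without any other array but B6 replicate 1 (0.0586 to 0.128). Ctso was lost without treated replicate 1 (0.0678) or B6 replicate 2 (0.0656), and Ctsl with trimmed-mean scaling or array medians centred. Ctsd (0.19 ± 0.04, adjusted p = 0.0151) and Ctsb (0.15 ± 0.03, adjusted p = 0.0211) passed with quantile normalization, while with array medians centred they gave -0.0028 and -0.12. Another Ctsb probe set passed at 0.28 ± 0.05 with quantile normalization, and further ones gave 0.20 ± 0.08 and 0.13 ± 0.11 and did not pass. Ctsd was also lost without treated replicate 1 or either B6 array (0.0625 to 0.0981), and Ctsb without treated replicate 2 or either B6 array (0.0650 to 0.109).

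Of the pump, Atp6v1d (0.48 ± 0.05, adjusted p = 5.11e-04), Atp6v1h (0.49 ± 0.12, adjusted p = 0.0265) and the representative Atp6v1g1 probe set (0.41 ± 0.06) rose in treated apoE-deficient against B6 hearts. Atp6v0e rose by 0.43 ± 0.06 (adjusted p = 0.00203) and Atp6v0d1 by 0.19 ± 0.06 (adjusted p = 0.0456). Atp6v1h no longer passed without treated replicate 1 (adjusted p = 0.210) or B6 replicate 1 (0.151), and Atp6v0d1 passed with no array but treated replicate 1 left out (0.0710 to 0.226). Atp6ap2 had levels of 10.30 and 10.22 in treated hearts, 9.91 and 10.25 in untreated apoE-deficient hearts, and 9.80 and 9.86 in B6 hearts. Its treated hearts lay above B6 hearts by 0.43 ± 0.10 (1.34-fold, adjusted p = 0.0202), and its untreated apoE-deficient arrays spanned most of that distance. Its other probe sets disagreed in this comparison: one passed at 0.40 ± 0.09, and another gave 0.004 ± 0.095 (adjusted p = 0.985). Without treated replicate 1, B6 replicate 1 or B6 replicate 2 Atp6ap2 did not pass (adjusted p = 0.0808 to 0.107).

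**Figure D4:**
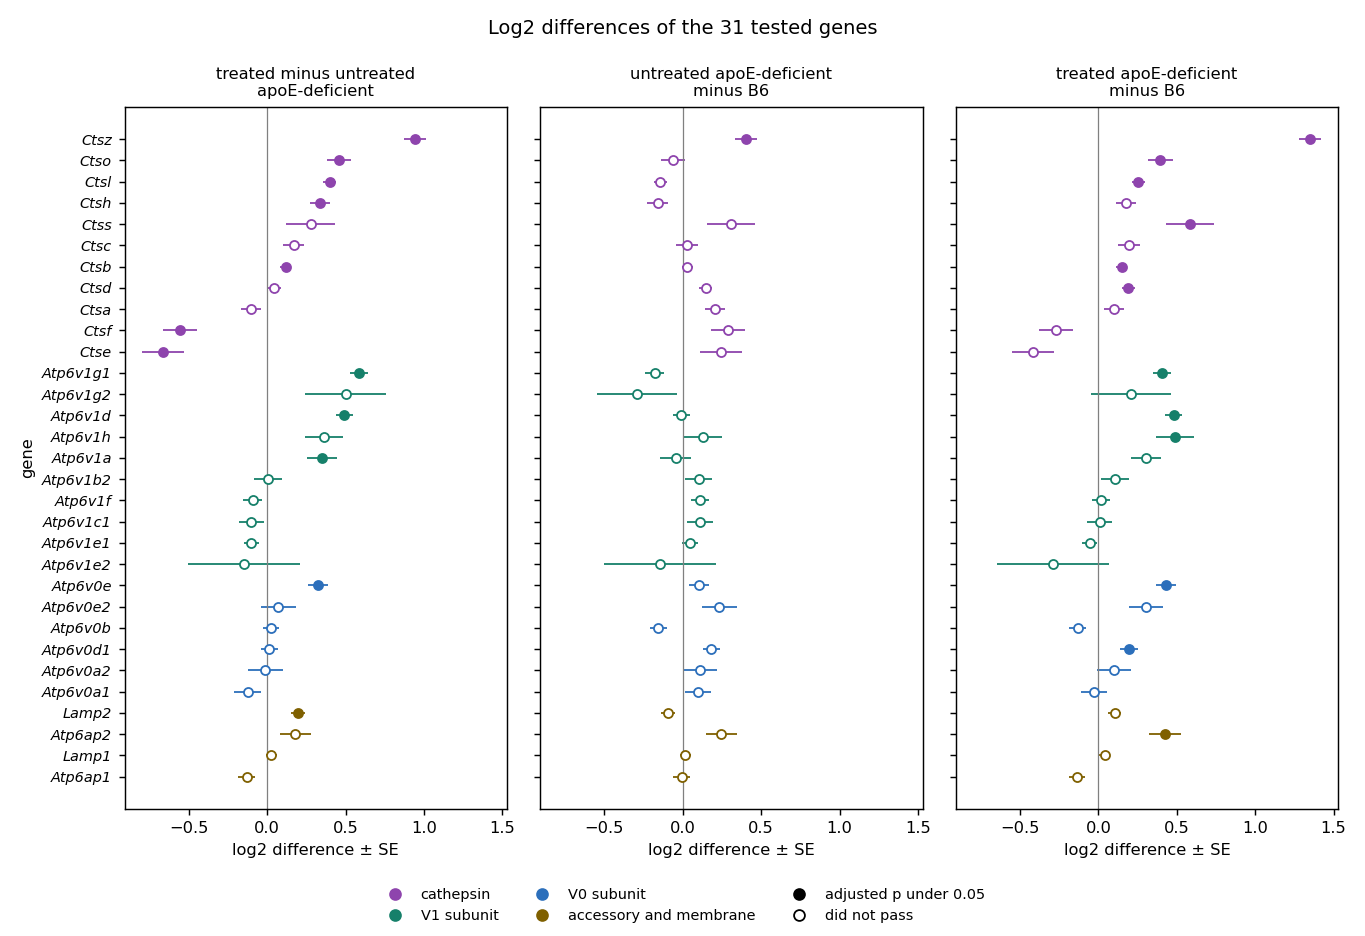
Log2 difference ± SE of the 31 tested genes in the 3 comparisons, by class; filled points passed at an adjusted p under 0.05 and open points did not. Ctsz passed in all 3 comparisons and Ctse and Ctsf fell in the first, and the comparisons share arrays.

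Summed over the 40 genes, the normalized signal was 52623 and 52637 in treated hearts, 47006 and 47828 in untreated apoE-deficient hearts, and 46225 and 46150 in B6 hearts. The sum is carried by the brightest genes, some of which change direction with the scaling. The 17 cathepsins summed to 23920 and 24273 in treated hearts, 21011 and 21214 in untreated apoE-deficient hearts, and 20384 and 19967 in B6 hearts. The 12 V1 subunits summed to 11556 and 11159 in treated hearts, 9797 and 9990 in untreated apoE-deficient hearts, and 9708 and 9898 in B6 hearts. The V1 sum includes the representative probe set of Atp6v1g1, a gene for which no direction is given. That probe set gave 2469 and 2310 in treated hearts, 1590 and 1583 in untreated apoE-deficient hearts, and 1874 and 1726 in B6 hearts.

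Probe sets of one gene did not always give the same call. Of the 40 genes, 19 had more than 1 tested probe set, with 33 tested probe sets besides the representative ones. In treated against untreated apoE-deficient hearts, 16 of the 33 belonged to genes that passed: 7 of these passed in the same direction, 1 in the opposite direction (Atp6v1g1) and 8 did not pass. Another 2 passed for genes whose representative probe set did not, one each for Atp6v0a2 and Atp6v1c1.

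**Figure D5:**
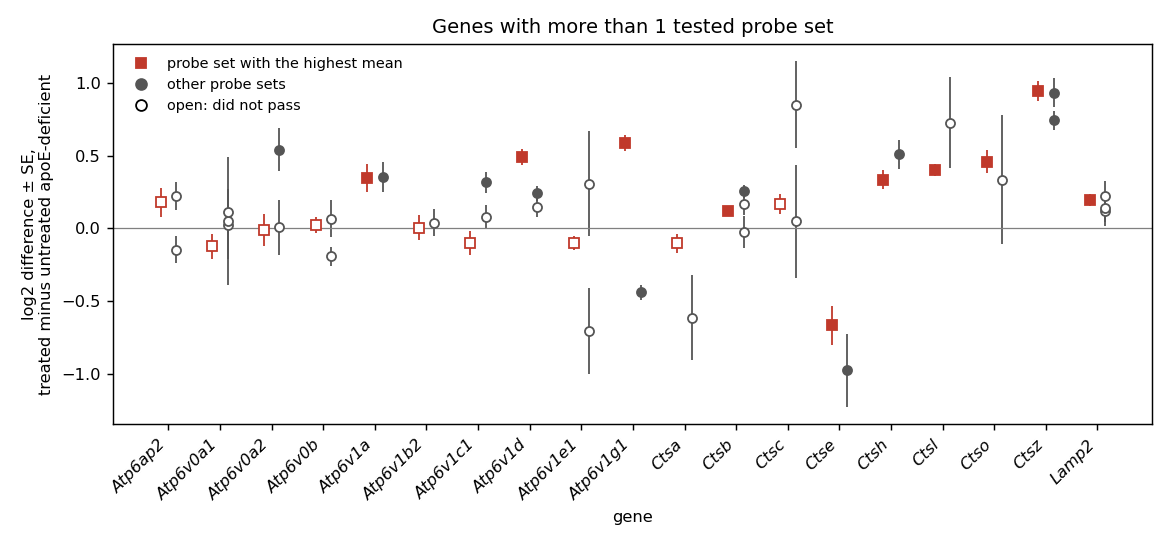
Log2 difference ± SE of treated minus untreated apoE-deficient hearts for each tested probe set of the 19 genes with more than 1; squares are the probe set with the highest mean and circles the others, filled where they passed. The 3 Ctsz probe sets lie between 0.74 and 0.95, and the 2 of Atp6v1g1 lie on opposite sides of 0.

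The 9 tested genes with the core CACGTG in the promoter window can be set beside the 14 tested genes with a window and no match. In treated against untreated apoE-deficient hearts 3 of the 9 rose (Ctsl, Atp6v1a and Atp6v0e) and 1 fell (Ctsf), while 4 of the 14 rose and 0 fell. Over all tested genes 11.4% rose and 12.3% fell, and these sets were not matched for brightness. In treated apoE-deficient against B6 hearts 4 of the 9 and 5 of the 14 rose, where 8.78% of all tested genes did. Tfeb, the factor best known to bind the element, gave -0.19 ± 0.14 in treated against untreated apoE-deficient hearts (adjusted p = 0.412) and 0.02 ± 0.14 in untreated apoE-deficient against B6 hearts. Of 12 tested genes for TFEB-family factors and their mTORC1 regulators, 1 rose (Lamtor1, 0.21, which turns to -0.048 with trimmed-mean scaling) and 1 fell (Lamtor3, -0.22) in the first comparison.

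The 2 genes left out by name were dim. Ctsk, the collagen-degrading cathepsin of osteoclasts, had levels of 7.36 and 7.14 in treated hearts, 6.47 and 6.69 in untreated apoE-deficient hearts, and 6.74 and 7.12 in B6 hearts, and rose by 0.68 ± 0.20 in treated against untreated apoE-deficient hearts (adjusted p = 0.0421). Atp6v0d2, the d subunit of osteoclasts and some macrophages, gave 0.29 ± 0.40 (adjusted p = 0.678). Tcirg1, which encodes the a3 subunit of the same pump, gave -0.20 ± 0.22 (adjusted p = 0.582).

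Other lysosomal genes, taken from lists, stood beside the cathepsins in treated against untreated apoE-deficient hearts. Of 32 tested lysosomal hydrolases 9 rose and 3 fell, with a median difference of 0.26, and 14, 15 and 22 rose with trimmed-mean, median and spike-in scaling. The shares of all tested genes were 11.4% higher and 12.3% lower, and 13.2%, 15.5% and 23.2% higher with these scalings. Lipa, the acid lipase that hydrolyses cholesteryl esters and triglycerides, rose by 0.81 ± 0.08, and the sulfatases Arsb and Arsa rose by 0.78 ± 0.14 and 0.74 ± 0.13. Gaa, the acid glucosidase that degrades glycogen, fell by 0.45 on the log2 scale and Smpd1, acid sphingomyelinase, fell by 0.31. The rises of Lipa, Arsa and Arsb and the falls of Gaa and Smpd1 were called under each of the 4 scalings. In untreated apoE-deficient against B6 hearts 1 of the 32 rose (Man2b1, lysosomal alpha-mannosidase, 0.62 ± 0.08) and 0 fell, and in treated apoE-deficient against B6 hearts 10 rose and 3 fell. The all-gene shares were 3.85% higher and 4.66% lower in the former comparison, and 8.78% and 9.87% in the latter.

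Of 20 other lysosomal membrane and accessory proteins 4 rose and 1 fell in treated against untreated apoE-deficient hearts, with a median difference of 0.073. Beside the counts of this paragraph, 11.4% of all tested genes rose and 12.3% fell, and 21.4% and 32.5% of the bright genes did. Grn, which encodes the lysosomal protein progranulin, rose by 0.58 ± 0.06, and Npc2, a cholesterol carrier of the lysosome lumen, by 0.32 ± 0.05. With trimmed-mean scaling 3 of the 20 rose and 4 fell, where 13.2% and 12.9% of all tested genes did. In the 10 genes of mannose 6-phosphate sorting, which delivers enzymes to lysosomes, 3 rose and 2 fell: the sorting receptor gene Sort1 rose by 0.71 ± 0.10 and the small receptor M6pr by 0.22 ± 0.06, while the large receptor Igf2r differed by -0.22 ± 0.06, a fall called under 2 of the 4 scalings. In untreated apoE-deficient against B6 hearts Sort1 fell, with a difference of -0.62 ± 0.10.

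Among 7 tested cystatins and other cathepsin inhibitors 2 rose and 0 fell in treated against untreated apoE-deficient hearts. The all-gene shares there were 11.4% higher and 12.3% lower, and those of the bright genes 21.4% and 32.5%. Under trimmed-mean scaling and under array medians centred 2 of the 7 rose and 1 fell, and under spike-in scaling 3 rose and 1 fell. Cstb, which encodes the intracellular inhibitor stefin B, rose by 0.58 ± 0.06 (adjusted p = 1.64e-04), beside a difference of -0.32 ± 0.06 in untreated apoE-deficient against B6 hearts that also passed. Serpina3n, a secreted serpin, rose by 1.43 ± 0.23 in treated against untreated apoE-deficient hearts and by 0.91 ± 0.23 in untreated apoE-deficient against B6 hearts. Cst3, the secreted cystatin C, gave 0.03 ± 0.03 in treated against untreated apoE-deficient hearts with quantile normalization (adjusted p = 0.550). Its deposited signals were 12887 and 11196 in treated hearts, against 7803 and 7703 in untreated apoE-deficient hearts. That rise was smaller than the rise of the trimmed means. Of 10 other pump and assembly genes 2 rose, Dmxl1 by 0.89 ± 0.12 and Oxr1 by 0.36 ± 0.06.

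Macrophage markers did not all follow one order of groups. Cd68, a lysosomal glycoprotein of macrophages, had levels of 8.64 and 8.72 in treated hearts, 8.63 and 8.69 in untreated apoE-deficient hearts, and 7.63 and 7.82 in B6 hearts. Both apoE-deficient groups overlapped each other and lay above B6 hearts, with differences of 0.03 ± 0.11 (adjusted p = 0.901) between treated and untreated apoE-deficient hearts and 0.93 ± 0.11 (adjusted p = 0.00173) between untreated apoE-deficient and B6 hearts. The macrophage markers Gpnmb (2.26 ± 0.19) and Lgals3 (1.82 ± 0.11) did rise in treated against untreated apoE-deficient hearts, while Adgre1 fell by 0.61 on the log2 scale. The share of these cells in the Ctsz difference was not tested.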

How the data were processed

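The deposited table gives one linear intensity per probe set and array; GCOS is named in the submitters' processing notes, without a version, and how it scaled the arrays is not given in the sources used here. Of 45101 probe sets, 64 controls were left out. The given annotation paired 34945 probe sets with 1 symbol, 932 with several and 9160 with none; only the first were named. Signals of the other 45037 were quantile normalized, 11.1 (25th percentile) was added, and log2 taken. Probe sets with a mean above the 40th percentile (4.99) entered limma 3.58.1 (R 4.3.3; lmFit, eBayes with an intensity trend), 3 groups in 1 fit, 3 residual and 5.97 prior degrees of freedom, Benjamini-Hochberg adjusted over 27022 probe sets. The test was tried on simulated data first. Arrays of a group correlated at 0.968 to 0.987, and 0 had identical values. Alternatives were 3 scalings (2%-trimmed mean, 18 spike-in probe sets, array medians), pseudocounts of 1 and 50, no filter, no trend, the mean of a gene's probe sets, a replicate block and leaving out each array. Genes and lists were chosen with earlier results of these data known. Any of the 40 genes may be named, and of each list up to 4 with the smallest p.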

Additional observations from a re-analysis of the deposited data

How the results depend on the processing

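Pseudocounts of 1 and 50 changed no call of the 31 genes, nor did choosing probe sets by the deposited signal, an alternative chosen after seeing the data. Leaving out Atp6v1g1, also chosen then, gave 9, 1 and 11 higher in the 3 comparisons. For treated against untreated apoE-deficient hearts (10 higher, 2 lower), 2 and 0 passed without the intensity trend, 6 and 1 with the mean of a gene's probe sets, and 7, 5 and 0 fell with trimmed-mean, median and spike-in scaling. The 2 that passed without the trend were Ctsz and Atp6v1g1, so the calls of Ctsl, Ctso, Ctsh, Atp6v1d and Atp6v0e were lost there. Ctso was also lost with the mean of its probe sets. For untreated apoE-deficient against B6 (1 higher, 0 lower), 2, 2 and 8 rose with those 3 scalings, 0 without the trend, and 1 fell with the mean of probe sets. For treated apoE-deficient against B6 (12 higher, 0 lower), 24 rose with spike-in scaling, 1 without the trend and 6 with the mean of probe sets, and 1 fell with trimmed-mean and with median scaling. Leaving out 1 array gave 7 to 10 higher and 1 to 2 lower, 0 to 2 higher, and 6 to 10 higher in these 3 comparisons; without B6 replicate 2 the last was 6, without B6 replicate 1 and without treated apoE-deficient replicate 1 it was 7. The lone array of a group was then assumed to vary like the others. Without treated apoE-deficient replicate 2 or untreated apoE-deficient replicate 2, 1 gene fell in the first comparison.

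Directions that turned for genes that passed under either setting were, for treated against untreated apoE-deficient hearts with trimmed-mean and median scaling, Ctsb (-0.28, -0.20; spike-in -0.098), Ctsd (-0.28, -0.21) and Lamp1 (-0.29, -0.22), and Atp6v1g1 with the mean of its probe sets (-0.20). For treated apoE-deficient against B6 they were Ctsb (-0.11, -0.12), Ctsd (-0.00097, -0.0028), Lamp1 (-0.18, -0.18), Atp6v1g1 (-0.16), and with spike-in scaling Atp6v0a1 (0.32) and Atp6v1e1 (0.19). Both Atp6v1g1 values are means that take in its probe set below the filter. Signs of genes that passed under none of the 4 scalings turned for 7, 10 and 3 further genes in the 3 comparisons. A gene that passed only under a scaling that kept its sign is in neither group. In treated apoE-deficient against B6 hearts the 9 genes whose sign turned with a scaling were Atp6ap1, Atp6v0a1, Atp6v0b, Atp6v1e1, Atp6v1f, Ctsb, Ctsd, Ctsf and Lamp1. The cause was not tested. Over all probe sets that passed, the share called higher in untreated apoE-deficient against B6 was 44.8%, 81.0% with spike-in scaling and 25.7% with median scaling, and in treated apoE-deficient against B6 49.6% and 92.5% with spike-in scaling. All probe sets that passed numbered 5355, 1909 and 4066 in the 3 comparisons, and 1653, 10 and 626 without the trend.

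Same-numbered arrays shared no common deviation over the tested probe sets: their deviations correlated at -0.0063, 0.020 and 0.033. Whether the arrays were paired is not in the labels, and these values cannot show it. With the replicate block 10, 1 and 11 genes rose in the 3 comparisons and 2, 0 and 0 fell. With 2 arrays per group, small differences cannot be resolved.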
